A study of Mus musculus with 2 samples.

Results

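The interferon response genes are genes whose RNA is known to rise when cells are exposed to interferons. They were chosen by symbol from a list of 41 genes, and 39 of these were analysed among the 32285 gene entries of the 2 matrices, while Mx1 and Mx2 were not analysed here. Their RNA was measured by droplet single-cell RNA sequencing (10x Genomics) of cells from digested mouse aortas that had been bound to magnetic beads against CD31, a surface protein of endothelial cells (ECs). The WT library came from ApoE-/- mice on C57BL/6, named WT in the labels and fed a Western diet, a combination that produces atherosclerosis. The EC-iCD45KO library came from ApoE-/- mice on C57BL/6 on the same diet in which CD45 was deleted in ECs by a tamoxifen-inducible system. The ApoE deficiency and the diet were therefore shared by both groups. The Cre driver, the tamoxifen schedule and whether WT mice received tamoxifen, the number, age and sex of the mice and any pooling are not given in the sources used here. With 1 library per group there was no replicate check and no test between conditions. Each interval below is a 95% interval for counting error only.

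Interferons are secreted proteins that bind cell surface receptors and activate Janus kinases, which phosphorylate STAT proteins such as STAT2. With IRF9, STAT2 is part of a complex that binds the interferon-stimulated response element (ISRE) in promoters, and a second element, the gamma-activated site (GAS), is known from the response to interferon gamma. The induced genes encode nucleic acid sensors, antiviral effectors and regulators of the response, and ECs and leukocytes of the diseased artery wall are known to express them. CD45, encoded by Ptprc, is a transmembrane tyrosine phosphatase of leukocytes, and Janus kinases have been described among its substrates.

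The deposited matrices held 39849 WT barcodes with 92058043 UMIs (unique molecular identifiers, each marking 1 captured RNA molecule) and 30278 EC-iCD45KO barcodes with 88967918 UMIs. After filters and the removal of probable doublets 35553 and 26064 cells remained, with median depths of 1616 and 1510 UMIs. The libraries shared 340 cell barcodes, of which 258 were kept. Cells were clustered without the interferon response genes, and clusters were called X-like from markers outside them. EC-like cells numbered 3875 in WT (10.9% of cells kept) and 3984 in EC-iCD45KO (15.3%). All 12 EC markers were at 5 CPM or more in both libraries, with summed levels of 4847 and 5649 CPM. A level is given as CPM, the UMIs of a gene per 1000000 UMIs of the class. UMIs were not scaled to gene length, so levels are compared within a gene. A log2 ratio is EC-iCD45KO over WT. A gene passed the minimum with a mean of 5 CPM and 20 UMIs over both libraries, and it is called lower or higher where the ratio was at least 2-fold and its counting interval left out 0.

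Several of the genes carry the ISRE letters in the sequence just before their start. In the RefSeq promoter table (GRCm38.p6), GAAANNGAAA was searched on both strands in the 250 bases upstream, and overlapping matches were joined. The motif stood before 936 of the 27025 genes of that table (3.46%). Of the 30 interferon response genes with a window, 14 held it (46.67%). The sequences below are those of 3 genes that were lower in EC-iCD45KO ECs and of 2 that were not called there, and the capitals mark the match on the gene's strand, where TTTC arms are the reverse complement of GAAA.
Ifit1 (chr19:34640775-34640804, plus strand): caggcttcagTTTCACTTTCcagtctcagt
Ifit1 (chr19:34640794-34640823, plus strand): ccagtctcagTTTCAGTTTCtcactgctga
Ifit3 (chr19:34583363-34583392, plus strand): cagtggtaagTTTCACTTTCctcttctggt
Ifit3 (chr19:34583397-34583426, plus strand): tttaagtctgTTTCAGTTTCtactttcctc
Isg15 (chr4:156200871-156200900, minus strand): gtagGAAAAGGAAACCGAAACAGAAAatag
Rsad2 (chr12:26456553-26456582, minus strand): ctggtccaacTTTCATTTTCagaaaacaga
Gbp2 (chr3:142620594-142620623, plus strand): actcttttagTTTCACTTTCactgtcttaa

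Ifit3b, the near copy of Ifit3, held the same 2 stretches at chr19:34607759-34607788 and chr19:34607793-34607822. The motif did not separate the genes by their ratio in ECs. Among the 11 genes with a window that were called lower in EC-like cells 4 held it (36.36%), against 10 of the 19 not called (52.63%). The 19 include Oas3, which held the motif but was below the minimum in these cells. The GAS letters TTCNNNGAA stood in 3 of the 11 and 6 of the 19, and before 8.13% of all genes of the table. A match describes letters and is not evidence of binding.

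In EC-like cells the interferon response genes were lower in the EC-iCD45KO library. Of the 38 that passed the minimum, 14 were called lower and 0 higher, against 3.7% and 1.56% of all 10961 genes that passed in these cells. The ratio lay below 0 for 36 of the 38, against 50.2% of all genes, and their median log2 ratio was -0.79 against 0.00 for all genes. A core list of 10 of them (Ifit1, Ifit2, Ifit3, Ifit3b, Isg15, Rsad2, Cmpk2, Usp18, Oasl2 and Irf7) summed to 1175 CPM in WT and 472 CPM in EC-iCD45KO, with a log2 ratio of -1.31 (-1.37 to -1.26). All 39 together went from 6763 to 4987 CPM, with a log2 ratio of -0.44 (-0.46 to -0.42). Ifitm3 held 40.3% of their UMIs in WT and 49.5% in EC-iCD45KO, and without it the summed ratio was -0.68.

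**Figure D1:**
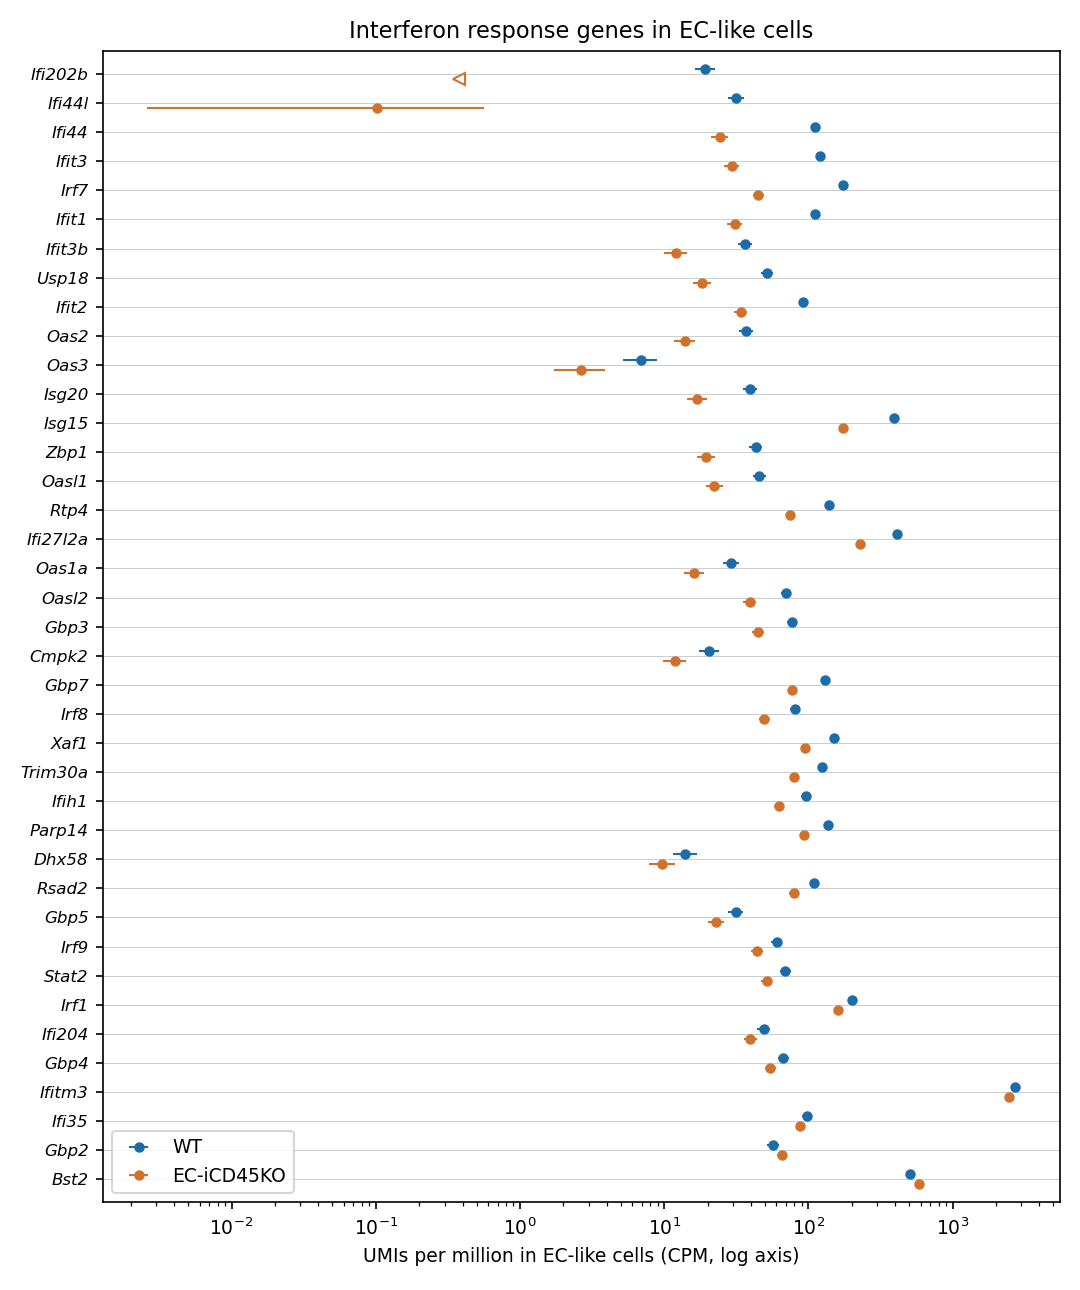
Level of each of the 39 interferon response genes in EC-like cells of both libraries, as CPM on a log axis, with 95% Poisson intervals for counting error and genes ordered by log2 ratio. The open triangle is the upper limit for Ifi202b, with 0 UMIs in EC-iCD45KO, and only Bst2 and Gbp2 lay higher in EC-iCD45KO.

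The transcription factors of the response differed in size. Irf7, which drives the induction of type I interferon genes, stood at 174 CPM in WT ECs and 45.1 CPM in EC-iCD45KO ECs, with a log2 ratio of -1.95 (-2.10 to -1.79). It was the factor of the 5 that was called lower. Irf7 overlaps Phrf1 on the other strand, as Usp18 and Oasl1 overlap Gm44148 and Gm13822, and whether counting used strand is not given in the sources used here. On the same strand Irf9 overlaps Rnf31, Gbp4 overlaps Gbp8 and Gbp9, and Rtp4 overlaps Gm45338. How reads in these stretches were counted is not given either. Irf1, a factor induced above all by interferon gamma, was at 201 and 162 CPM (-0.31). The other 3 lay between: Irf8 at 81.2 and 49.6 CPM (-0.71), Irf9 at 60.3 and 44.4 CPM (-0.44) and Stat2 at 69.3 and 51.4 CPM (-0.43). The median of the 5 was -0.44. The Irf8 ratio was not seen in the ECs with no UMI of 8 leukocyte markers, where it was at 28.7 and 30.1 CPM (0.07, -0.63 to 0.77).

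The IFIT family, cytoplasmic proteins that bind foreign RNA, had all 4 of its genes called lower. They lie close together on chromosome 19 (GRCm38), with Ifit1 at chr19:34640871-34650009 and Ifit3 at chr19:34583531-34588731, and summed to 360.0 CPM in WT and 106 CPM in EC-iCD45KO. Ifit3 was at 120.4 CPM in WT and 29.3 CPM in EC-iCD45KO, with a log2 ratio of -2.04 (-2.23 to -1.85). Ifit1 went from 111 to 30.8 CPM, with a log2 ratio of -1.85 (-2.04 to -1.66). These are the 2 genes whose paired ISRE letters are printed above. Ifit3b was measured at 36.5 and 12.0 CPM, with a log2 ratio of -1.60 (-1.92 to -1.29). Ifit2 was at 91.9 and 33.9 CPM (-1.44). Of the 90-base windows of Ifit3 transcripts 35.14% were shared with Ifit3b, and how reads that fit both were counted is not given in the sources used here, so the split between these 2 genes is uncertain.

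Both genes of the ISG15 system were lower. Isg15, a ubiquitin-like protein that is attached to other proteins (chr4:156199424-156200818), stood at 389.6 CPM in WT and 173 CPM in EC-iCD45KO, with a log2 ratio of -1.17 (-1.26 to -1.09). Usp18, the protease that removes ISG15 and also dampens the interferon receptor, stood at 51.4 and 18.3 CPM, with a log2 ratio of -1.49 (-1.75 to -1.23).

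Of the OAS family, whose enzymes make oligoadenylates that activate RNase L, 2 of the 4 genes above the minimum were called lower. Oas2 was at 36.9 and 13.9 CPM (-1.40), and Oasl1, a family member known to repress the translation of Irf7, was at 45.7 and 22.3 CPM (-1.04). Oas1a at 29.0 and 16.2 CPM (-0.84) and Oasl2 at 69.9 and 39.2 CPM (-0.84) lay in the same direction short of 2-fold. Oas3 was below the minimum, with 6.90 and 2.65 CPM. Oas1a shared 43.43% of its 90-base windows with Oas1g. How reads that fit both were counted is not given in the sources used here, so the level of Oas1a is uncertain.

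The guanylate-binding proteins, GTPases that attack pathogen-containing vacuoles and are strongly induced by interferon gamma, differed by less than 2-fold. None of the 5 was called in either direction, and their median log2 ratio was -0.45. Gbp2 was at 56.8 CPM in WT and 65.3 CPM in EC-iCD45KO (0.20), one of the 2 genes with a ratio above 0. Gbp7 was at 131 and 77.3 CPM (-0.76), and Gbp3 at 77.3 and 44.7 CPM (-0.79). Gbp4 and Gbp5 had ratios of -0.30 and -0.45.

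Among the nucleic acid sensors, Zbp1 and Ifi202b were called lower. Zbp1, a sensor of Z-form nucleic acids, was at 43.1 and 19.6 CPM (-1.14). Ifi202b (chr1:173962568-173982744), a DNA-binding protein that restrains the DNA sensor AIM2 and whose level is known to differ between inbred mouse strains, had 156 UMIs (19.2 CPM) in WT ECs and 0 in EC-iCD45KO ECs. Against a floor of 3 counts in that library it was at least 63.0-fold lower. The RNA sensors Ifih1, at 95.6 and 62.5 CPM (-0.61), and Dhx58, at 14.0 and 9.67 CPM (-0.54), were not called. Ifi204, a DNA sensor of the same gene family, was at 48.9 and 39.6 CPM (-0.31).

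Of the 7 other antiviral effectors 1 was called lower, and their median log2 ratio was -0.55. Ifitm3, a membrane protein that blocks viral entry, was at 2727 CPM in WT and 2468 CPM in EC-iCD45KO, with a log2 ratio of -0.14 (-0.17 to -0.12). Bst2, which tethers budding virions to the cell surface, was at 505 and 587 CPM, with a log2 ratio of 0.22 (0.16 to 0.27). The sign for Bst2 depended on the cells: it was at 760.0 and 701 CPM (-0.12, -0.19 to -0.04) in the EC-like cluster led by Gpihbp1 and at 748 and 737 CPM (-0.02, -0.15 to 0.11) in ECs with no leukocyte marker UMI. Neither gene was called. Isg20, an exonuclease, was the gene called lower, at 39.2 and 16.9 CPM (-1.21). Rsad2, which makes a chain-terminating nucleotide, was at 110.1 and 79.2 CPM (-0.48), although it belongs to the core list and its promoter holds the ISRE letters. Its neighbour Cmpk2 was at 20.5 and 11.9 CPM (-0.78). Trim30a and Parp14 had ratios of -0.64 and -0.55.

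Of the other induced genes, Ifi44 and Ifi44l, neighbours on chromosome 3 (chr3:151730922-151749960 and chr3:151758737-151762892), were called lower. Ifi44 was at 111 and 24.2 CPM, with a log2 ratio of -2.19 (-2.41 to -1.99). Ifi44l had 257 UMIs (31.7 CPM) in WT and 1 UMI (0.10 CPM) in EC-iCD45KO, with a log2 ratio of -8.28 (-13.59 to -5.79). These 2 genes and Ifi202b behaved unlike the rest across the other cells, as described at the end. Ifi27l2a, a small mitochondrial protein, was at 411 and 229 CPM, with a log2 ratio of -0.85 (-0.92 to -0.77), and was not called. It met the call in ECs with no leukocyte marker UMI, at 371 and 80.6 CPM (-2.20, -2.53 to -1.89), and its ratio was -1.89 in the cluster led by Gpihbp1, -0.75 in that led by Sfrp1 and -0.30 in that led by Tmem252. Rtp4 was at 139.8 and 75.1 CPM (-0.90), Xaf1 at 150.4 and 94.4 CPM (-0.67) and Ifi35 at 97.2 and 88.1 CPM (-0.14).

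The share of ECs in which several core genes were detected together was lower too. It draws on the same UMIs, cells and genes as the summed core level, so it is not separate support. The core list was chosen with earlier results of these data known. Each cell was thinned to 1000 UMIs, which left out 1275 WT and 1455 EC-iCD45KO EC-like cells. At least 3 of the 10 core genes had a UMI in 240 of 2600 WT cells (9.23%, 8.15 to 10.4%, Clopper-Pearson) and in 56 of 2529 EC-iCD45KO cells (2.21%, 1.68 to 2.87%). The difference was -7.02 percentage points (-8.29 to -5.78, Newcombe). Without thinning the shares were 18.4% and 7.25%, at median depths of 1321 and 1271.5 UMIs. The cells with at least 3 core genes held 70.6% of the core UMIs in WT and 52.4% in EC-iCD45KO, and the remaining cells were also lower, at 542 against 287 CPM.

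Among single genes, Isg15 had a UMI in 25.4% of thinned WT ECs and 13.5% of EC-iCD45KO ECs (34.8% and 21.9% unthinned). Irf7 was found in 14.8% and 4.39% (22.2% and 8.89% unthinned), Ifit1 in 9.46% and 3.01% (14.8% and 5.57%) and Ifit3 in 8.35% and 2.45% (15.1% and 4.97%). Ifitm3 was found in 84.2% and 82.9% of thinned ECs, so nearly the same share of cells carried it in both libraries. Bst2 lay the other way, in 34.3% and 39.3% (45.3% and 50.3% unthinned). No class is known to lack these genes. B-like cells were the class with the lowest core level in WT and had median depths of 2014.5 and 2552.5 UMIs. In them Ifit1 was found in 0.519% of thinned WT cells, Ifit3 in 1.47%, Isg15 in 3.67% and Irf7 in 3.95%. The EC-iCD45KO EC share of Irf7, 4.39%, was close to that last value.

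**Figure D2:**
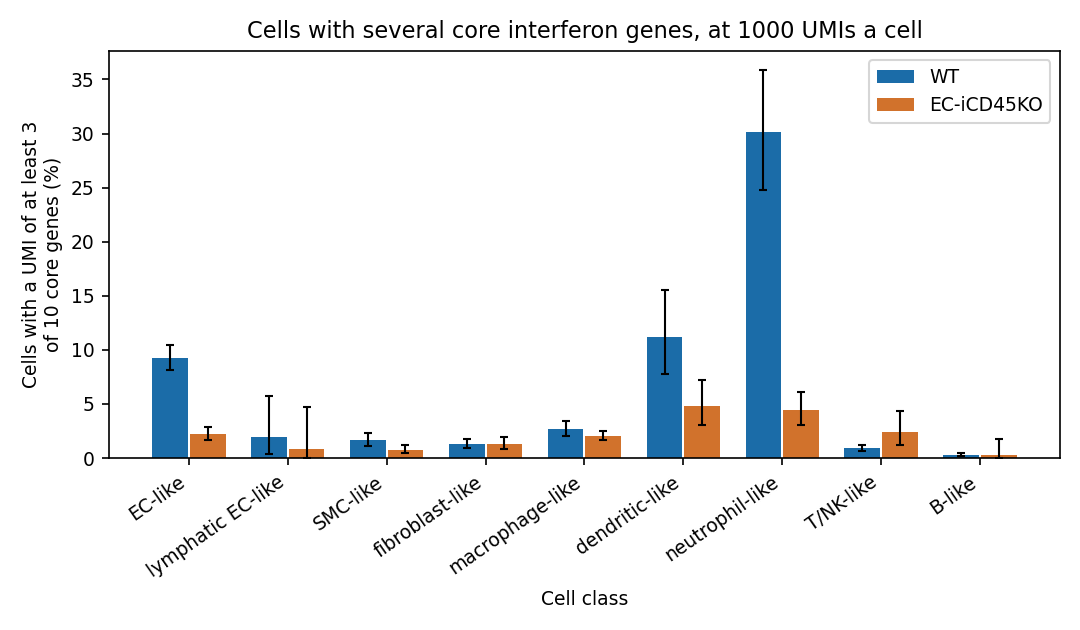
Percent of cells in which at least 3 of the 10 core genes had a UMI, after thinning to 1000 UMIs, by class and library, with 95% Clopper-Pearson intervals for counting error. EC-like cells stood at 9.23% in WT and 2.21% in EC-iCD45KO, and neutrophil-like cells at 30.1% and 4.42%.

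EC-like cells fell into 3 clusters, and each had lower core levels in EC-iCD45KO. The largest in both libraries, with 2413 WT and 2548 EC-iCD45KO cells, was led by Tmem252, by Fabp4, which carries fatty acids, and by Rbp7. Its core level was 996 and 403 CPM (-1.31), and 12 of its 39 interferon response genes were called lower and 0 higher, against 4.87% and 2.99% of all genes. The cluster led by Gpihbp1, which anchors lipoprotein lipase on capillary endothelium, had 855 and 1032 cells. It had the highest core level of the 3 in WT, 1761 CPM against 559 CPM in EC-iCD45KO (-1.66), and 24 of 38 genes were called lower and 0 higher, against 3.83% and 2.1% of all. The cluster led by Sfrp1, with 607 and 404 cells, had the smallest ratio, 526 and 344 CPM (-0.61), with 6 of 35 called lower and 1 higher, against 3.9% and 2.3%. The 1 higher gene was Ifit2, named after its values were seen, at 17.5 and 38.0 CPM in that cluster. Irf7 was at 264 and 46.8 CPM in the Gpihbp1 cluster and at 59.1 and 33.9 CPM in the Sfrp1 cluster. A further cluster, led by Glycam1 and Selp, stayed unnamed because its EC and smooth muscle markers were level. It held 278 WT and 895 EC-iCD45KO cells (3.47% and 14.8% of unnamed cells), with core levels of 738 and 317 CPM (-1.22). At Leiden resolution 2 clusters of ECs were split unevenly between the libraries. An EC-like cluster led by Ackr1 and Tmem252 held 176 WT and 1538 EC-iCD45KO cells. An unnamed cluster led by Glycam1 and Igkv8-30, nearest to ECs by its markers, held 1402 and 90.

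RNA of other cell types was present in EC-like droplets and moved with the library. The summed markers of B cells were at 840.0 CPM in WT ECs and 63.6 CPM in EC-iCD45KO ECs, with none of the 7 at 0 in either. Those of T/NK cells were at 338 and 52.2 CPM, with 0 and 1 of 10 at 0. Macrophage markers moved the other way, 3869 and 5857 CPM with none of 9 at 0, as did neutrophil markers, 67.7 and 176 CPM with none of 6 at 0. Scaled by 2 markers per class to the level of each gene in B-like, T/NK-like, macrophage-like and neutrophil-like cells, this RNA would amount to 7.74 of the 111 CPM of Ifit1 in WT and 4.00 of the 30.8 CPM in EC-iCD45KO. For Isg15 the same sum was 45.9 and 31.1 CPM. For Irf7 it was 17.8 and 12.2 CPM. These sums depend on the naming of 1 cluster, led by Chil3: with it counted as macrophage-like, an alternative chosen after the data were seen, they were 11.5 and 4.86 CPM for Ifit1, 87.9 and 37.9 CPM for Isg15 and 33.9 and 15.8 CPM for Irf7. In the 548 WT and 517 EC-iCD45KO ECs with no UMI of 8 leukocyte markers, 14 of 38 genes were called lower and 0 higher, against 3.71% and 1.56% of all 9564 genes tested there. Of these 14, 12 were among the 14 called in all ECs, Ifi27l2a and Oas1a (-1.55) were added, and Oasl1 (-0.94) and Zbp1 (-0.51) were not called. Ifitm3 stood at -0.40 there, and Dhx58, with 11 and 16 UMIs, at 0.57 (-0.63 to 1.83). In these cells Irf7 was at 228 and 50.5 CPM and Ifit1 at 146 and 46.4 CPM. Ptprc, the deleted gene, was at 306 CPM in all WT ECs and 114 CPM in EC-iCD45KO ECs (-1.42, -1.53 to -1.32), and how much of it came from leukocyte RNA was not tested.

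The other genes of the interferon pathway were called in ECs about as often as genes in general. Of 88 genes that are not on the list above, 78 passed the minimum in EC-like cells and 4 were called lower and 1 higher, against 3.7% and 1.56% of all genes. Of the 78, 61 had a ratio below 0, and the median log2 ratio was -0.30. The ligands were scarce in these cells: Ifnb1 had 11 and 17 UMIs, Ifng 31 and 6, and Ifna1, Ifna2, Ifna4, Ifnk, Ifnl2 and Ifnl3 had 0 in both libraries. The 5 receptor genes above the minimum all had ratios above 0, with a median of 0.19, and none was called. Ifnar1 and Ifnar2, the type I receptor chains, were at 37.8 and 41.5 CPM and at 164 and 206 CPM. The kinases Jak1, Jak2 and Tyk2 had ratios of -0.20, -0.12 and -0.11, and none was called. Antigen presentation, with 10 genes such as H2-K1 and Psmb8, had a median of -0.29, the 4 feedback genes -0.45, the 8 sensing genes 0.01 and the chemokines Cxcl9 and Cxcl10 -0.54. The largest ratios were Ifitm1, at 30.2 and 82.3 CPM (1.45), Ifi209, at 38.3 and 15.0 CPM (-1.36), and Ifi213, at 31.1 and 12.5 CPM (-1.31). The last 2 belong to the gene family of Ifi202b.

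Of 13 named classes, the 9 with ECs, wall cells and most leukocytes are described first and plasma-like, Schwann-like, chondrocyte-like and erythroid and platelet-like cells after them. Across the 9 classes the core level in WT ran from neutrophil-like cells at 5209 CPM through dendritic-like cells at 1297, EC-like cells at 1175, lymphatic EC-like cells at 589, macrophage-like cells at 439.9, fibroblast-like cells at 436, T/NK-like cells at 399 and SMC-like (smooth muscle) cells at 304 to B-like cells at 135 CPM. In EC-iCD45KO the range was narrower, from 854 CPM in neutrophil-like cells to 150.2 CPM in B-like cells. Summed over all 39 genes, the log2 ratio was -1.54 in neutrophil-like, -0.18 in SMC-like, -0.16 in dendritic-like and -0.14 in lymphatic EC-like cells. It was -0.10 in T/NK-like, 0.02 in macrophage-like, 0.04 in B-like and 0.07 in fibroblast-like cells. In lymphatic EC-like, macrophage-like and fibroblast-like cells its sign was opposite to that of the core ratio. All classes come from the same 2 libraries, so they are not independent views of the conditions, and the differences in ratio between classes were not tested.

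**Figure D3:**
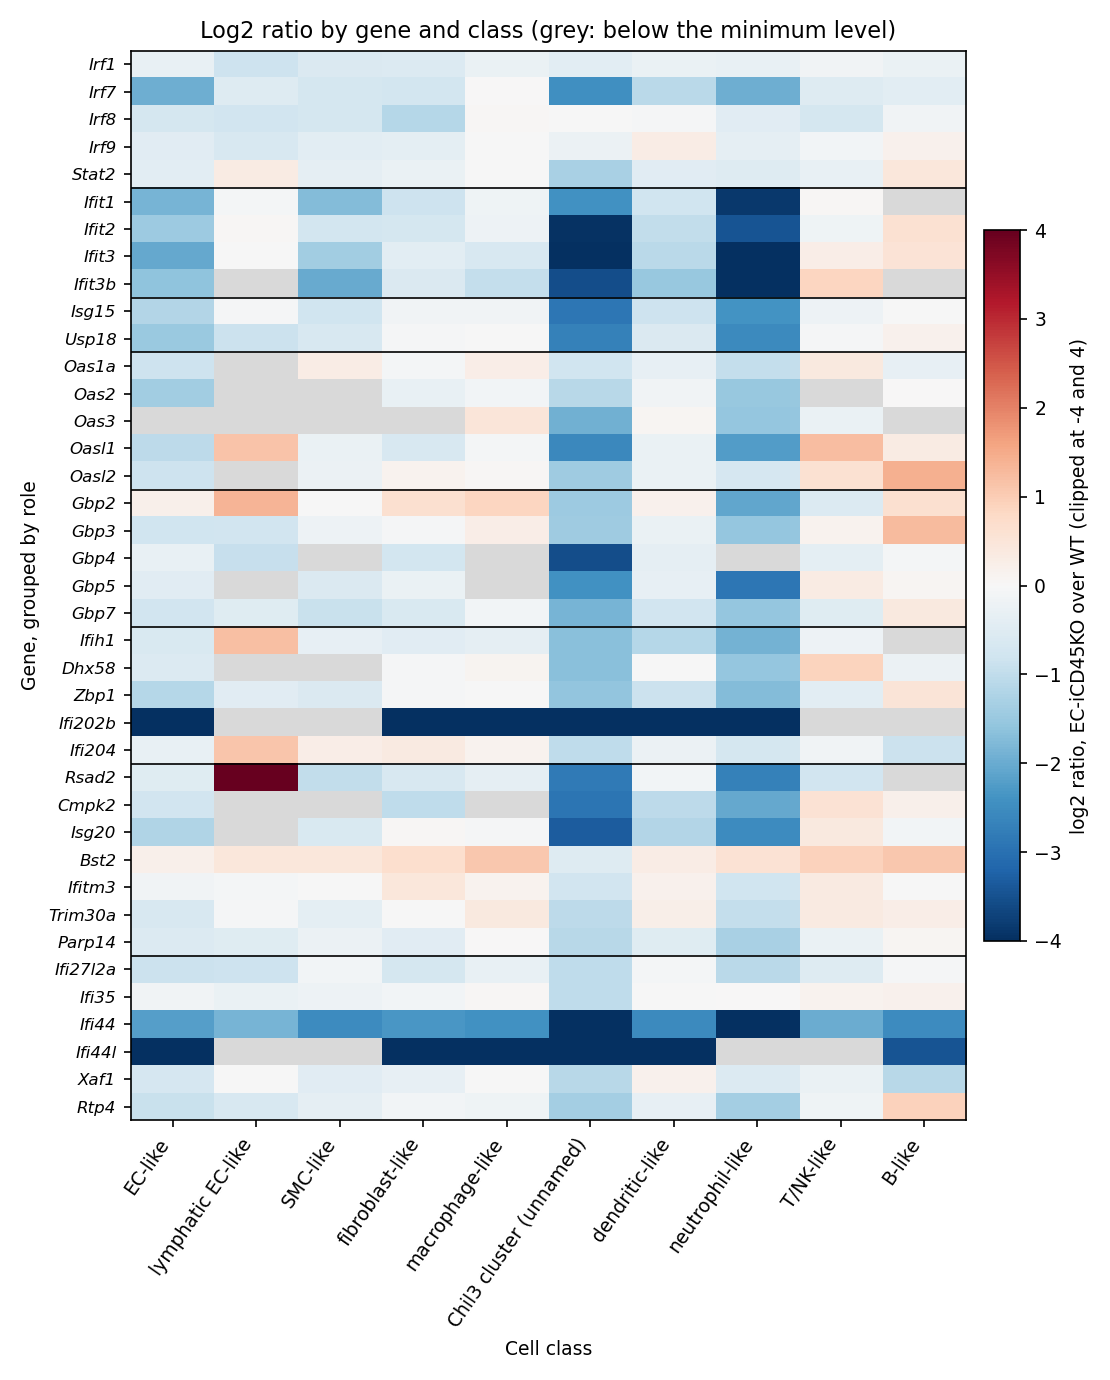
Log2 ratio, EC-iCD45KO over WT, of the 39 interferon response genes in 9 classes and in the unnamed cluster led by Chil3, clipped at -4 and 4, with grey for genes below the minimum and lines between roles. The columns of neutrophil-like cells and the Chil3 cluster are lower over most roles, with 25 and 33 genes called lower, while Ifi44 is lower in every column.

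Neutrophil-like cells, which in WT had the highest core level, also had the largest core difference of the 13 named classes. Of 37 genes above the minimum 25 were called lower and 0 higher, against 7.08% and 3.37% of all 8334 genes, with a median log2 ratio of -1.55. The class had 439 WT and 1051 EC-iCD45KO cells, and its core log2 ratio was -2.61 (-2.69 to -2.52). Isg15 was at 2294 CPM in WT and 433 CPM in EC-iCD45KO, with a log2 ratio of -2.40. Ifit3 went from 599 to 30.8 CPM, with a log2 ratio of -4.28 (-4.71 to -3.88). Both carry the ISRE letters and both were also lower in ECs. Ifitm3 was at 1704 and 977 CPM (-0.80) and Ifi27l2a at 1176 and 561 CPM (-1.07), while Rsad2 was at 844 and 129 CPM (-2.71). Ifi202b had 21 and 0 UMIs, at least 18.0-fold lower, and Ifi44 had 22 and 3 UMIs, with a log2 ratio of -4.24 (-6.62 to -2.50). The 4 guanylate-binding genes above the minimum were all called lower here, with a median of -1.82, whereas none was in ECs. Of the 14 genes called lower in ECs 13 were also lower in neutrophil-like cells, which is 92.9% of the EC list and 52.0% of the neutrophil list. Since 25 of the 37 genes above the minimum were called lower there, a large overlap follows in part from that count. The overlap over all genes was not computed. TMM scaling raised every log2 ratio of this class by 0.14, and the calls over all genes moved from 281 higher and 590 lower to 422 and 443.

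The share of neutrophil-like cells with at least 3 core genes was 30.1% in WT (84 of 279 thinned cells) and 4.42% in EC-iCD45KO (33 of 747), with 160 and 304 shallower cells left out. Unthinned shares were 32.6% and 6.66%, at median depths of 1132 and 1351 UMIs. Isg15 was found in 49.5% and 21.4% of thinned cells. Ifit1 was found in 24.4% and 2.01%. Elsewhere the thinned share with at least 3 core genes was 2.66% and 2.05% in macrophage-like, 1.99% and 0.870% in lymphatic EC-like, 1.62% and 0.770% in SMC-like, 1.29% and 1.29% in fibroblast-like and 0.260% and 0.322% in B-like cells. The lymphatic EC-like shares were 3 of 151 and 1 of 115 cells, with intervals of 0.412 to 5.70% and 0.0220 to 4.75%. The B-like share in EC-iCD45KO was 1 of 311 cells.

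Macrophage-like cells, in contrast, had core levels of 439.9 CPM in WT and 389 CPM in EC-iCD45KO. Of 36 genes above the minimum 3 were called lower and 1 higher, against 1.27% and 0.824% of all 9465 genes, and the median log2 ratio was -0.02. The 3 were Ifi202b with 194 UMIs in WT and 1 in EC-iCD45KO (-9.12, -14.43 to -6.63), Ifi44l with 282 and 6 UMIs (-7.07) and Ifi44 at 45.1 and 8.41 CPM (-2.42). Bst2 was the gene called higher, at 204 and 430.3 CPM (1.08, 1.01 to 1.15). Ifitm3 was at 845 and 941 CPM and Ifi27l2a at 736 and 594 CPM. The largest macrophage-like cluster differed between the libraries: the cluster led by Zmynd15 held 44.0% of these cells in WT and 27.0% in EC-iCD45KO, and that led by Gpnmb and Mmp12 held 25.3% and 39.4%. Within clusters the core log2 ratio was 0.13 in the Zmynd15 cluster, 0.15 in the Gpnmb cluster and -0.59 in the cluster led by Ccl12 and Mrc1, a gene of tissue-resident macrophages.

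This macrophage result rested on the naming of 1 cluster. The cluster led by Chil3 and F10 had 697 WT and 1399 EC-iCD45KO cells (8.70% and 23.2% of unnamed cells) and stayed unnamed: its mean log2 marker excess was 0.979 for macrophages and 0.802 for neutrophils, short of both the required excess of 1 and the required lead of 0.75. In it 33 of 39 genes were called lower and 0 higher, against 4.35% and 1.64% of all genes, and the core level was 3398 CPM in WT and 487 CPM in EC-iCD45KO (-2.80, -2.86 to -2.75). There Isg15 was at 1460.2 and 195 CPM, Irf7 at 559 and 102 CPM and Ifit3 at 345 and 18.0 CPM. With this cluster added to the macrophage-like cells, 13 of 38 genes were called lower and 0 higher, against 1.63% and 0.643% of all genes, and the core level was 1041 and 409 CPM (-1.35). Counts of 13 and 0 were also obtained with a stricter and with a looser cell filter, under which the class had 2833 and 3426 WT cells, and this alternative was chosen after the data were seen. Under these filters 1.54% and 1.55% of all genes were called lower and 0.601% and 0.734% higher. Without doublet removal and at Leiden resolution 2 the counts were again 3 lower and 1 higher, and the core log2 ratios were 0.05 and -0.12. In these settings 2.49% and 1.33% of all genes were called lower and 1.02% and 0.920% higher. In both the Chil3 cluster was again outside the class, named neutrophil-like in the first and unnamed in the second, where its macrophage excess of 1.137 lacked the lead over the next class, at 0.71.

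**Figure D4:**
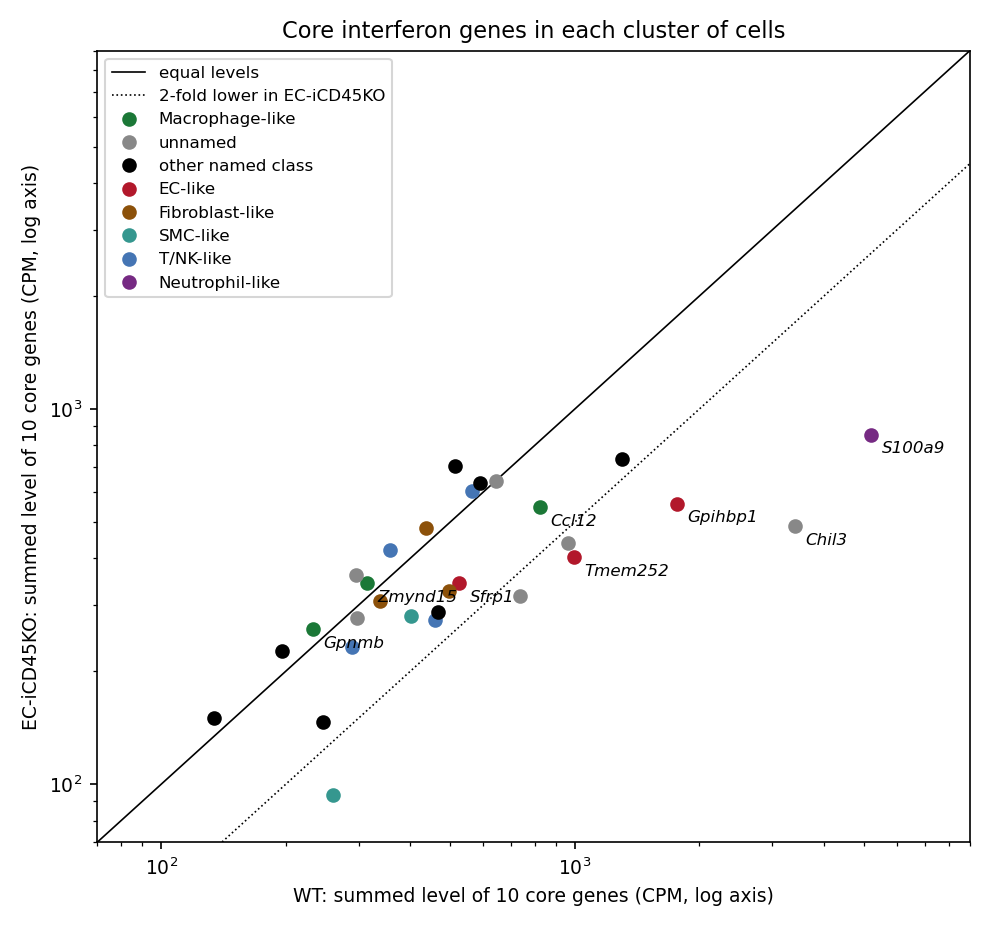
Summed core level in EC-iCD45KO against WT for each cluster present in both libraries, in CPM on log axes, coloured by class, with leading genes written beside EC-like, macrophage-like and neutrophil-like clusters and the unnamed Chil3 cluster. The Chil3 cluster, at 3398 and 487 CPM, and the neutrophil-like S100a9 cluster, at 5209 and 854 CPM, lie farthest below the line of equal levels.

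Dendritic-like cells, antigen-presenting cells, had a core level of 1297 CPM in WT and 733 CPM in EC-iCD45KO (-0.82). All 39 genes passed the minimum, 9 were called lower and 0 higher, against 3.62% and 2.2% of all genes, and the median log2 ratio was -0.32. Isg15 was at 609 and 341 CPM (-0.84), Ifitm3 at 2324 and 2636 CPM (0.18) and Ifi27l2a at 685 and 647 CPM (-0.08). The largest ratios were Ifi44l with 63 and 0 UMIs, at least 43.8-fold lower, Ifi202b with 57 and 0 UMIs, at least 39.6-fold lower, and Ifi44 at 84.3 and 14.5 CPM (-2.54). The other 6 were Irf7, Ifit3, Ifit3b, Ifih1, Cmpk2 and Isg20. At least 3 core genes had a UMI in 11.2% of thinned WT cells (31 of 277) and 4.80% of EC-iCD45KO cells (22 of 458).

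In SMC-like cells, the contractile cells of the vessel wall, the core level was 304 CPM in WT and 159 CPM in EC-iCD45KO (-0.93). Of 32 genes 4 were called lower and 0 higher, against 3.23% and 1.71% of all genes, with a median of -0.44. The 3 largest ratios were Ifi44 at 16.3 and 2.87 CPM (-2.51), Ifit3b at 13.4 and 3.33 CPM (-2.01) and Ifit1 at 31.1 and 9.30 CPM (-1.74), and Ifit3 was the other. Ifitm3 was at 1214 and 1208 CPM (-0.01), Ifi27l2a at 181 and 168 CPM and Bst2 at 115 and 159 CPM. Of the 4 genes called lower here 3 belong to the IFIT family.

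Fibroblast-like cells, named from markers of matrix-producing cells, had a core level of 436 CPM in WT and 342 CPM in EC-iCD45KO (-0.35). Of 38 genes 5 were called lower and 0 higher, against 5.84% and 2.3% of all genes, with a median of -0.36. Ifi202b with 112 and 0 UMIs was at least 31.4-fold lower, Ifi44l with 109 and 0 UMIs at least 30.5-fold lower, and Ifi44 was at 30.5 and 6.12 CPM (-2.32). Irf8 and Cmpk2 were the others. Ifitm3, at 1531 and 2094 CPM (0.45), and Bst2, at 180.1 and 287 CPM (0.67), lay higher in EC-iCD45KO without reaching 2-fold, while Ifi27l2a was at 425 and 260.3 CPM (-0.71). The cluster led by Dmp1 held 57.6% of these cells in WT and that led by C7 and Clec3b held 59.4% in EC-iCD45KO. Their own core log2 ratios were 0.14 and -0.60. The class result depends on the naming of the Dmp1 cluster, with a marker excess of 3.02 for fibroblasts and 2.19 for SMCs. Slurp1 was among its leading genes. Clusters led by genes that include Slurp1 stayed unnamed with the stricter and looser filters, without doublet removal and at Leiden resolution 2. The calls of the class without the Dmp1 cluster were not computed.

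Lymphatic EC-like cells were few, 234 in WT and 219 in EC-iCD45KO, and the sign of their core ratio rested on 1 cell. Their core level was 589 and 634 CPM (0.11, -0.13 to 0.34). Without the EC-iCD45KO cell with the most Rsad2 UMIs it was 589 and 463 CPM (-0.35, -0.60 to -0.09), and with Rsad2 left out of the core it was 585 and 549.8 CPM (-0.09, -0.33 to 0.16). Both alternatives were chosen after the data were seen. Of 28 genes 1 was called lower and 3 higher, against 4.39% and 4.51% of all genes. Ifi44 was the lower one, at 61.1 and 16.8 CPM (-1.86). Rsad2 had 2 UMIs in WT and 45 in EC-iCD45KO (4.27, 2.33 to 7.36), but 43 of the 45 came from 1 cell, which left 2 in all others. Gbp2 at 19.6 and 50.5 CPM (1.36) and Ifih1 at 50.2 and 116 CPM (1.21) were the other 2, on 9 and 27 and on 23 and 62 UMIs, of which that cell held 0 and 1. Ifitm3 was at 3102 and 2932 CPM, Ifi27l2a at 718 and 404 CPM and Bst2 at 314 and 430.1 CPM.

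In T/NK-like and B-like cells the counting interval of the core log2 ratio held 0. In T/NK-like cells, 4064 in WT and 481 in EC-iCD45KO, the core level was 399 and 371 CPM (-0.10, -0.24 to 0.03), and of 36 genes 1 was called lower and 1 higher, against 1.74% and 5.4% of all genes. Ifi44 was at 15.1 and 3.81 CPM (-1.99), Oasl1 at 11.3 and 26.7 CPM (1.25) and Bst2 at 91.2 and 175 CPM (0.94). Ifi27l2a was at 523 and 364 CPM, Irf1 at 279 and 252 CPM and Isg15 at 192 and 166 CPM. The share of T/NK-like cells with at least 3 core genes lay the other way from that in ECs, at 0.885% in WT (32 of 3616 thinned cells) and 2.41% in EC-iCD45KO (10 of 415), a difference of 1.52 points (0.37 to 3.51), with 448 and 66 shallower cells left out. Unthinned it was 3.20% and 5.41%, at median depths of 1986.5 and 2614 UMIs. The cluster led by Dapl1 and Lef1 held 38.1% of these cells in WT and that led by Trdc and Cd163l1 held 41.2% in EC-iCD45KO, with core log2 ratios of -0.32 and -0.75, while the clusters led by Tnfrsf4 and by Ccl5 had ratios of 0.10 and 0.23. In B-like cells, 5746 and 334, the core level was 135 and 150.2 CPM (0.16, -0.10 to 0.41), and of 33 genes 3 were called lower and 3 higher, against 1.01% and 2.49% of all genes. Ifi44l had 159 and 1 UMIs (-3.45, -8.76 to -0.95), Ifi44 was at 25.0 and 4.42 CPM (-2.50) and Oasl2 at 8.65 and 23.2 CPM (1.42), while Xaf1 was the other lower gene and Gbp3 and Bst2 the other higher ones. Ifi27l2a was at 394 and 382 CPM, Irf8, a factor of B cell development, at 345 and 311 CPM and Irf1 at 201 and 166 CPM.

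Schwann-like cells, the glia of peripheral nerves, and chondrocyte-like cells, which make cartilage matrix, had higher calls and no lower ones. In Schwann-like cells, 122 in WT and 380 in EC-iCD45KO, the core level was 514 and 706 CPM (0.46, 0.18 to 0.75), and of 27 genes 4 were called higher and 0 lower, against 5.65% and 4.22% of all genes. The 4 were Ifih1 with 4 and 40 UMIs (1.69, 0.22 to 3.64), Bst2 at 145 and 452 CPM (1.64), Gbp2 at 32.2 and 85.7 CPM (1.41) and Ifi27l2a at 318 and 636 CPM (1.002), and 1 cell held 32 of the 66 EC-iCD45KO UMIs of Gbp2. Ifitm3 was at 1021 and 1495 CPM and Isg15 at 169 and 287 CPM. In chondrocyte-like cells, 760 and 253, the core level was 196 and 227 CPM (0.21, -0.03 to 0.45), and of 31 genes 4 were called higher and 0 lower, against 5.24% and 4.11% of all genes, with 23 ratios above 0 and a median of 0.41. The 4 were Ifit2 at 8.74 and 28.5 CPM (1.71), Rsad2 at 8.40 and 27.3 CPM (1.70), Gbp5 with 11 and 9 UMIs (1.53, 0.08 to 2.94) and Ifi204 at 20.5 and 44.0 CPM (1.10). Ifitm3 was at 651 and 1095 CPM, Ifi27l2a at 134 and 178 CPM and Irf1 at 99.8 and 73.7 CPM. Their thinned share with at least 3 core genes was 0.670% (4 of 597 cells) and 3.57% (8 of 224), with 163 and 29 shallower cells left out (2.76% and 6.32% unthinned).

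Plasma-like cells, which secrete antibodies, were 1606 in WT and only 80 in EC-iCD45KO, with a core level of 246 and 146 CPM (-0.75, -1.29 to -0.26). Of 32 genes 5 were called lower and 1 higher, against 6.22% and 4.46% of all genes. The lower ones were Ifih1, Ifi44, Stat2 and Ifit1, each with 0 UMIs in EC-iCD45KO and 140, 82, 72 and 71 in WT, and Oasl1 with 123 and 1 (-2.77, -8.09 to -0.27). A count of 0 in so few cells sets only a weak bound. At the floor of 3 UMIs Ifih1 was at least 2.60-fold lower, but Ifi44 at least 1.52-fold, Stat2 at least 1.34-fold and Ifit1 at least 1.32-fold, so 3 of the 5 did not reach 2-fold there. Bst2 was the higher one, at 112 and 271 CPM (1.27), while Ifitm3 was at 390.0 and 447 CPM and Ifi27l2a at 310 and 211 CPM. In erythroid and platelet-like cells, 350 and 190, the core level was 467 and 287 CPM (-0.70, -1.07 to -0.34). Of 21 genes 2 were called lower, Irf7 with 30 and 9 UMIs (-1.27) and Trim30a with 30 and 8 (-1.44), and Ifih1 with 17 and 34 (1.47) was higher, against 7.01% and 8.54% of all genes. Ifitm3 was at 709 and 1003 CPM, Ifi27l2a at 472 and 330.1 CPM and Isg15 at 163 and 139 CPM.

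Of the other pathway genes, 20 of 70 were called lower and 3 higher in neutrophil-like cells, against 7.08% and 3.37% of all genes, with a median log2 ratio of -0.40. In dendritic-like cells 5 of 74 were lower and 1 higher, where 3.62% and 2.2% of all genes were. In SMC-like cells 6 of 72 were lower and 2 higher, against 3.23% and 1.71%, and in fibroblast-like cells 6 of 75 were lower and 1 higher, against 5.84% and 2.3%. In lymphatic EC-like cells 6 of 64 were lower and 3 higher, against 4.39% and 4.51%. None was called lower among 74 in macrophage-like, 76 in T/NK-like and 71 in B-like cells, where the shares of all genes called lower were 1.27%, 1.74% and 1.01%. In these 3 classes 1, 2 and 3 were called higher, against 0.824%, 5.4% and 2.49%.

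Ifi202b, Ifi44l and Ifi44, singled out after their values were seen, were lower in the EC-iCD45KO library in each class in which they passed the minimum. Of the 13 named classes Ifi44 passed the minimum in 11 and was called lower in 10, all but chondrocyte-like cells with 45 and 6 UMIs (-1.08, -2.60 to 0.15). In 9 of the 10 the difference reached 2-fold with 0 counts set to the floor, and in plasma-like cells, at least 1.52-fold, it did not. Ifi202b and Ifi44l were each called lower in all 5 classes in which they passed. Over all cells kept, Ifi202b had 1276 UMIs in WT and 4 in EC-iCD45KO, Ifi44l 1676 and 10, and Ifi44 3952 and 742. In EC-like cells 2 genes outside the list differed the other way, Gdpd3 at 10.8 and 211 CPM (4.28) and Cwc22 at 29.8 and 132 CPM (2.14). Whether the 2 groups of mice differed in genotype outside the labelled alleles was not tested. Without the 3 genes, 11 of 35 were called lower in EC-like cells, with a median log2 ratio of -0.76, and 23 of 35 in neutrophil-like cells, where 3.7% and 7.08% of all genes were. The counts in the other 7 of the 9 classes without them were 6 of 36 in dendritic-like (3.62% of all genes), 3 of 31 in SMC-like (3.23%), 2 of 35 in fibroblast-like (5.84%) and 1 of 31 in B-like cells (1.01%), and 0 in macrophage-like, lymphatic EC-like and T/NK-like cells. The fibroblast-like count is near the share of all genes, and the SMC-like and B-like counts rest on 3 genes and 1 gene.

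**Figure D5:**
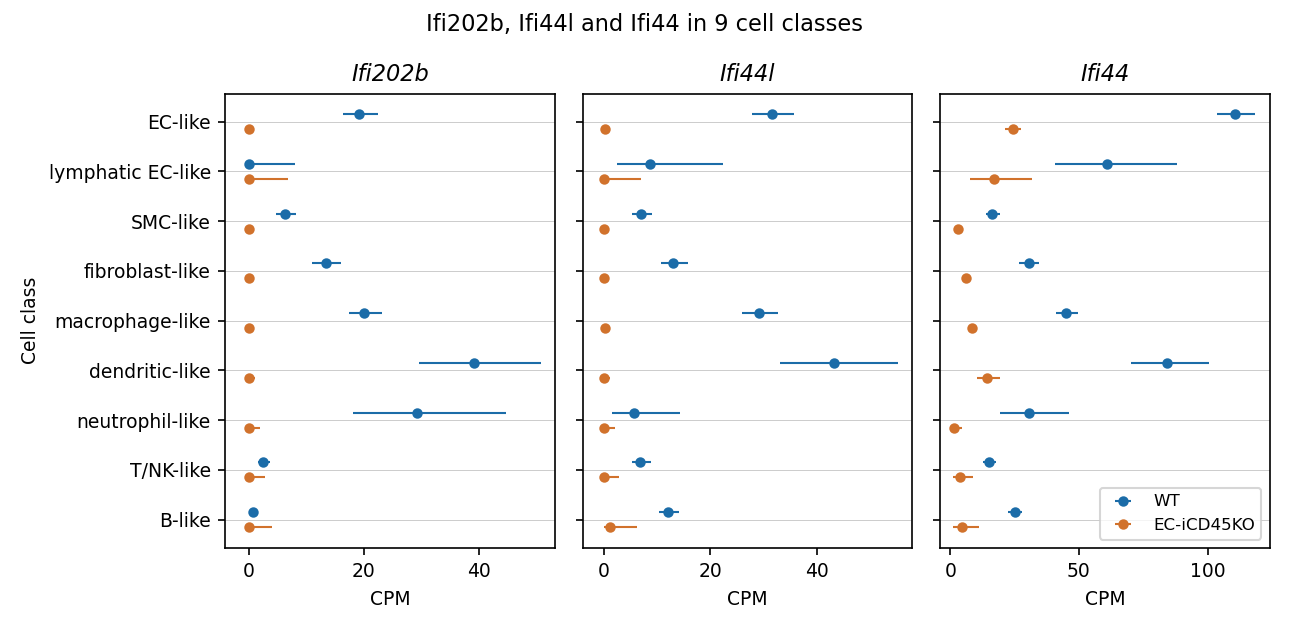
Levels of Ifi202b, Ifi44l and Ifi44 in CPM in 9 classes of both libraries, with 95% Poisson intervals for counting error. The EC-iCD45KO points of Ifi202b and Ifi44l lie at or near 0 in each class, and those of Ifi44 lie below WT in all 9.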

How the data were processed

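Single-cell RNA was sequenced from 2 libraries of CD31-bound aortic cells, 1 per group, grouped by their titles. The authors deposited whole-number counts of UMIs per gene and barcode, written by Cell Ranger 7.1.0 per the file headers, and the genome build was mm10 per the submitters' processing notes. The annotation, cell calling and treatment of intronic or multimapped reads are not given in the sources used here. Total depth was 92058043 and 88967918 UMIs, and the lowest barcode had 500 UMIs.

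Barcodes were kept with 300 or more genes and no more than 10% of UMIs from mitochondrial genes (39503 and 28960). Scrublet in scanpy 1.11.5 marked 3 of 39716 and 0 of 29991 cells by its own threshold and had not worked, so the top-scoring 10% of each library was removed. Both libraries were clustered together (2000 variable genes without the interferon response genes, 30 principal components, 20 neighbours, Leiden resolution 1). Clusters were named from 17 marker lists where the mean log2 excess of a class was at least 1, its lead 0.75, at least 3 markers were detected, the cluster had 50 cells and at most 99% of them came from 1 library. The values of these thresholds were chosen with the data in view, and names may differ from the study's own.

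UMIs were summed per class and library. Intervals were exact Poisson for levels, exact conditional binomial for ratios, Clopper-Pearson for shares and Newcombe for their differences, at 95%, and cover counting error only. Calls used the counts as they were. For a count of 0, the bound given as at least so many fold set it to a floor of 3 per library. Sums and ratios were tested on simulated data. The genes, lists and rules were chosen with earlier results of these data known. Named in full were the 8 largest ratios and 5 highest levels in EC-like cells, the 3 largest and 3 highest in each other class, and the 3 largest ratios among other pathway genes. Other members are given by role. Positions and overlaps came from GENCODE M21 (GRCm38), promoters from RefSeq (GRCm38.p6), with 30 of 39 genes matched. Alternatives changed the cell filter, doublets, clustering, scaling, fold, minimum and thinning. Software was scipy 1.17.1, numpy 2.4.6, matplotlib 3.10.9 and pandas 2.3.3 under Python 3.11.15, with TMM factors from edgeR 4.0.16 (R 4.3.3). Mx1 and Mx2 are not reported here.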

Additional observations from a re-analysis of the deposited data

Results flagged for a closer look

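The 8 genes below were called lower in EC-iCD45KO in at least 1 of the 13 named classes and higher in another, and the differences between the classes were not tested. Ifit2 had a log2 ratio of -1.44 in EC-like, -3.46 in neutrophil-like and 1.71 in chondrocyte-like cells. Oasl1 stood at -1.04 in EC-like, -2.24 in neutrophil-like, -2.77 in plasma-like and 1.25 in T/NK-like cells. Gbp2 stood at 1.36 in lymphatic EC-like, 1.41 in Schwann-like and -2.08 in neutrophil-like cells. In the Schwann-like class 1 cell held a large part of its EC-iCD45KO UMIs, as given above, and the ratio without that cell was not computed. Gbp3 was at -1.56 in neutrophil-like and 1.27 in B-like cells. Gbp5 was at -2.90 in neutrophil-like and 1.53 in chondrocyte-like cells. Ifih1 was at 1.21 in lymphatic EC-like, 1.69 in Schwann-like, 1.47 in erythroid and platelet-like, -1.13 in dendritic-like and -1.90 in neutrophil-like cells, and its bound in plasma-like cells, where EC-iCD45KO had 0 UMIs, was -1.38. Rsad2 was at 4.27 in lymphatic EC-like cells, where 43 of its 45 EC-iCD45KO UMIs came from 1 cell, at 1.70 in chondrocyte-like and at -2.71 in neutrophil-like cells. Ifi27l2a was at -1.07 in neutrophil-like and 1.002 in Schwann-like cells.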

How the results depend on the processing

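No paired analysis was possible because WT and EC-iCD45KO were each sequenced as 1 library. In EC-like cells 13 to 15 genes were called lower under the other filters, clusterings and scalings, and 0 higher in all of them. The shares of all genes, where computed, ran from 3.15% to 3.90% lower and from 1.53% to 1.69% higher. At 1.5-fold 25 genes were called lower and 0 higher, and the share of all genes at that cut was not computed. The summed EC-like log2 ratio of -0.44 was -0.47 with the stricter filter, -0.46 with the looser one, -0.47 without doublet removal, -0.54 at Leiden resolution 2, -0.41 with TMM, -0.46 without mitochondrial, ribosomal and haemoglobin genes, -0.59 in ECs without leukocyte markers and -0.37 as a mean over cells. Alternatives added after seeing the data gave -0.48 with equal weights for the 3 clusters, -0.68 without Ifitm3 and -0.87 without Ifitm3 and Bst2. The difference in the EC share, -7.02 points, was -19.5 at 2000 UMIs, -11.1 unthinned, -14.3 for at least 2 core genes and -13.9 in ECs without leukocyte markers. In neutrophil-like cells, also added, 24 to 30 genes were called lower and 0 higher. The shares of all genes in this class, where computed, ran from 3.72% to 8.003% lower and from 1.21% to 5.06% higher. The summed neutrophil-like ratio of -1.54 was -0.98 with the stricter filter, where the class held another cluster. It was -1.30 without doublet removal, where the class held the Chil3 cluster. It was -1.49 at resolution 2, -1.40 with TMM, -1.59 without the mitochondrial, ribosomal and haemoglobin genes and -1.77 as a mean over cells. Macrophage-like calls were 13 lower and 0 higher with the Chil3 cluster and with either other filter, and 3 lower and 1 higher without doublet removal and at resolution 2, where that cluster was outside the class. Of all genes 1.63%, 1.54% and 1.55% were lower with that cluster, the stricter and the looser filter. Without doublet removal and at resolution 2 the shares were 2.49% and 1.33%. The shares called higher ran from 0.601% to 1.02%. The lymphatic EC-like core log2 ratio of 0.11 was -0.35 without 1 cell and -0.09 without Rsad2, both added. Among EC-like ratios Irf8 moved from -0.71 to -0.38 and Ifitm3 from -0.14 to -0.30 at resolution 2, and the cause was not tested.

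The single library per group, the unstated number of mice, clusters named by thresholds set on these data and the RNA of other cells in droplets limit every value above. Genes under about 5 CPM, such as Oas3 in ECs, were too shallow to call, and the split between near copies such as Ifit3 and Ifit3b is uncertain.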
